A study of Dunaliella viridis with 39 samples.

Results

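The first day of a nitrate-fed culture was examined in the unicellular green alga Dunaliella viridis strain dumsii, as the difference between cells sampled 27 h and 3 h after they were placed in fresh medium with 5 mM nitrate. The comparison rests on the libraries labelled nitrate at these times, 3 per time and 6 of the 39 in the series. It covers all 17569 loci with enough counts to be tested out of 18495. Every culture stood at 23.5 °C under continuous light of 125 µmol photons. Inoculum cells grown on nitrate were spun down in mid-logarithmic phase and suspended in 450 ml of fresh medium. Per the labels the 3 h sampling was meant to lessen effects of this transfer. Each culture was set up in duplicate, and how the duplicates entered the libraries is not stated in the sources used here. The other groups used here for contrast are the inoculum itself at 0 h, the nitrate culture at 51 h, and cultures at 3 and 27 h with 5 mM glutamine, with 5 mM glutamate or without added nitrogen. Per the labels, glutamate was included as an amino acid that the cells do not use, and each group holds 3 libraries from 3 repeats of the whole experiment.

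Nitrate is brought into an algal cell by membrane transporters and reduced first to nitrite and then to ammonium, which glutamine synthetase and glutamate synthase build into amino acids. Green algae generally lower the transcripts for nitrate uptake and reduction when a reduced nitrogen source such as ammonium or glutamine is at hand. A culture that has just been diluted into fresh medium also has to adjust to new light and nutrient conditions per cell before it resumes steady growth. Loci carry only numbers in the deposited files, without gene names, so no locus below is assigned a function. RNA came from whole cultures, in which a change in the number of cells in a given state and a change in transcript per cell cannot be told apart.

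The 6 libraries held between 6329683 and 18138871 counts. Nitrate 3 h replicate 2 stood apart from the other libraries of its group. Its 10 most abundant loci took 18.2% of the counts, against 58.3% in replicate 1 and 44.5% in replicate 3 at 3 h and 53.7%, 51.9% and 46.1% in replicates 1, 2 and 3 at 27 h. The single most abundant locus of every library, Locus_10041, took 6.33% of its counts, against 24.6% and 17.9% in replicates 1 and 3. The 10-locus share therefore averaged 40.3 ± 20.4% at 3 h and 50.6 ± 3.97% at 27 h (SD, n = 3), and the groups overlapped (two-sided exact permutation p = 0.6, where 0.1 is the smallest p possible). There were 62 loci at least 8-fold lower in this library than in both other 3 h libraries, counting those at 10 counts-per-million (CPM) or more in both of the others. Their median was 4.53 CPM in replicate 2, 398.6 CPM in the other 3 h libraries and 456.7 CPM at 27 h. No locus met the same criterion in the other 3 h libraries or in any 27 h library, and none of the 62 was called between the times with or without replicate 2. Across loci, log2 CPM correlated at Pearson's r of 0.933 to 0.966 between the 3 h libraries and 0.964 to 0.971 between the 27 h libraries, where loci are not independent of each other. The main results that rest on this library are therefore given with and without it.

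A modest number of loci were called as changed in the nitrate culture over its first day. Between 3 and 27 h 449 loci rose and 508 fell, together 5.45% of those tested, by edgeR's quasi-likelihood test with Benjamini-Hochberg adjustment over all loci at 0.05. Most of the changes were small: 134 of the risen and 214 of the fallen loci differed at least 2-fold, and 9 and 44 at least 4-fold. The median log2 fold change was 0.85 in the risen loci and -0.92 in the fallen loci, against -0.05 over all loci tested. Without nitrate 3 h replicate 2 there were 321 risen and 203 fallen loci, 2.95% of the 17734 then tested.

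**Figure D1:**
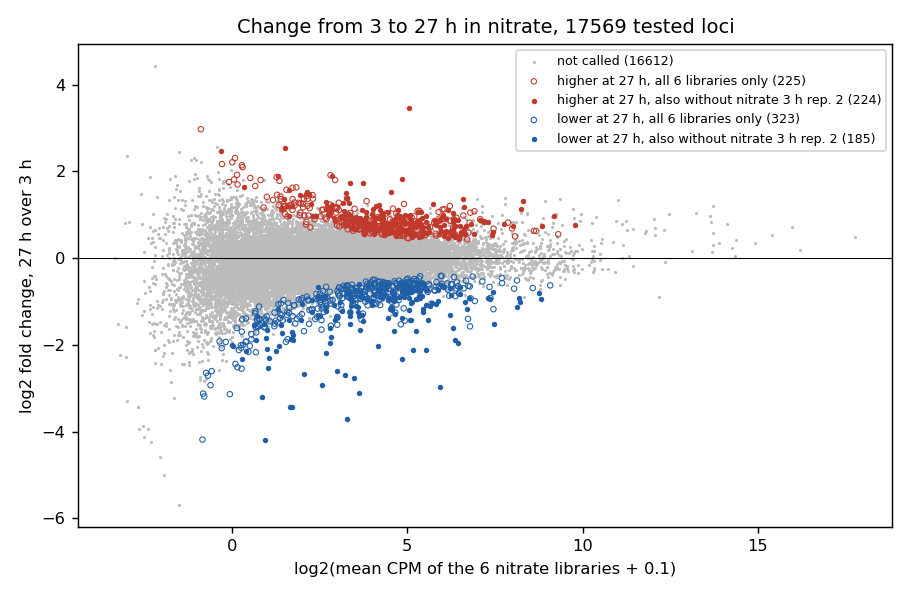
Each point is a locus, with the log2 of its mean level in the 6 nitrate libraries (CPM plus a small constant) on the horizontal axis and its log2 fold change from 3 to 27 h on the vertical axis. Filled red and blue points are the 224 higher and 185 lower loci called both with and without nitrate 3 h replicate 2, open points the 225 and 323 called with all libraries only, and grey points were not called.

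Which loci were called depended on nitrate 3 h replicate 2. Of the 449 risen loci, 224 (49.9%) were called higher in both fits, and of the 508 fallen loci 185 (36.4%) were called lower in both, while 0 were called in opposite directions. Both fits share all their other libraries, which leaves little room for opposite calls. The direction of loci called in a single fit was not counted. The 225 loci called higher with all libraries only had a median log2 fold change of 0.87 with replicate 2 and 0.75 without it. The 323 called lower with all libraries only had -0.85 and -0.71. In those 323 loci replicate 2 lay a median of 0.27 log2 units above the mean of the other 3 h libraries. It lay 0.01 above in the 185 that were called lower in both fits, and 0.06 above over all loci. A further 97 loci were called higher only without replicate 2, and there that library lay 0.65 log2 units above the others.

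Other libraries moved the count as well. Leaving out nitrate 27 h replicate 1 gave 190 risen and 146 fallen loci, leaving out 27 h replicate 2 gave 330 and 280, and leaving out 27 h replicate 3 gave 211 and 242. With the repeat of the experiment as a block 712 loci rose and 735 fell, and all 957 loci of the unblocked fit were among them. Within sequencing run 1, which held replicates 1 and 2 of both times, 126 rose and 161 fell, and within run 2, with 1 library per time that is assumed to vary like the other groups, 8 loci were called. On the deposited transcripts-per-million (TPM) values, which carry no correction for a few dominant loci, limma called 29 loci, 10.3% of them higher, and the overall median stood at -0.37. With each TPM library centred on its own median, it called 336 higher and 288 lower. When counts for 17569 loci were simulated after this comparison, the edgeR fit called 50% of the loci given a 2-fold change. It called 93% of those given a 4-fold change. The simulated counts took only the dispersion given to the fit, without the spread per locus that its quasi-likelihood test estimates. They also held no library that stood apart and no run or repeat effect, so the shares may differ in the real counts. Changes were given only to loci averaging at least 1 CPM, so these shares do not cover loci below that level.

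**Figure D2:**
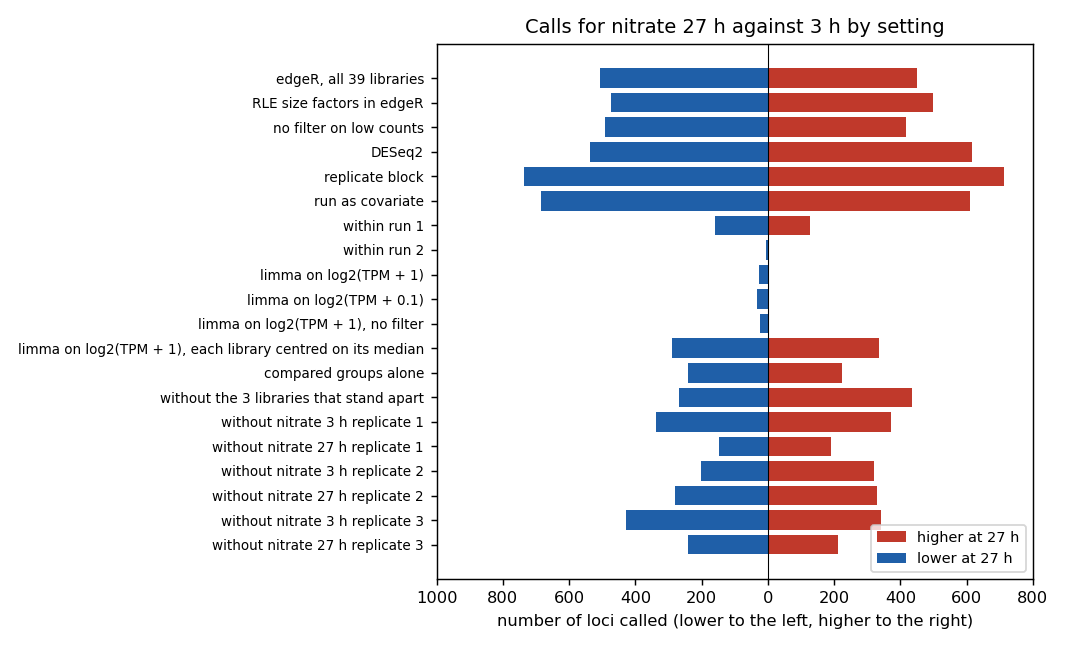
Bars give the number of loci called higher (to the right) and lower (to the left) at 27 h than at 3 h in nitrate under each setting. The fit of all 39 libraries gave 449 and 508, the fit with the replicate block 712 and 735, and limma on uncentred log2(TPM + 1) values 29 in all.

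Locus_568 had the largest rise among the 185 risen loci that averaged at least 10 CPM, did not overlap between the times and were called in both fits. Over all loci tested, 4382 of 17569 (24.9%) did not overlap between the times. It stood at 2.53, 7.17 and 6.48 CPM in nitrate 3 h replicates 1, 2 and 3 and at 70.2, 49.4 and 64.2 CPM at 27 h. Every 27 h library was thus far above every 3 h library. The log2 fold change was 3.46 (SE 0.30, edgeR adjusted p = 8.74e-10) and 3.82 without replicate 2 (edgeR adjusted p = 1.05e-08). Within repeats 1, 2 and 3 of the experiment it was 4.70, 2.76 and 3.28. The locus was at 3.12 ± 0.578 CPM in the inoculum (SD, n = 3) and at 25.2 ± 1.19 CPM in nitrate at 51 h, below each of its 27 h values. In per-length units it went from 8.22 ± 6.41 to 57.4 ± 14.7 TPM.

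Locus_18250, the second of the risen loci by this rule, was at 11.7, 12.8 and 13.4 CPM at 3 h and at 62.9, 32.2 and 39.7 CPM at 27 h. The 3 h libraries lay close together and the 27 h libraries all lay above them, with replicate 1 the highest. Its log2 fold change was 1.83 (SE 0.24, edgeR adjusted p = 5.35e-06), and 1.86 without replicate 2 at 3 h. It did not pass within run 2 (1.58, edgeR adjusted p = 0.477), where 1 library stands for each time, nor by limma on log2(TPM + 1) (1.34, limma adjusted p = 0.142). Over all its alternatives the adjusted p ran from 7.78e-11 by DESeq2 to 0.477. The level held at 51 h, with 64.2, 39.1 and 35.4 CPM, and the inoculum stood at 16.1 ± 3 CPM (n = 3).

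Locus_11442 had the largest fall among the 128 fallen loci that met the same conditions. It was at 29.7, 23.9 and 11.3 CPM at 3 h and at 4.25, 2.08 and 1.5 CPM at 27 h. All 27 h values were under the lowest 3 h value. The log2 fold change was -3.10 (SE 0.50, edgeR adjusted p = 0.000158), and -3.01 without replicate 2. Within run 2 it was -2.89 with an edgeR adjusted p of 0.241, the highest of its alternatives, whose lowest was 2.38e-05. The inoculum held 2.23 ± 1.16 CPM and nitrate at 51 h 1.5 ± 0.335 CPM (n = 3), so of these 4 nitrate-grown groups only the 3 h libraries were high. At 3 h it was also at 14.7, 11.9 and 3.31 CPM without nitrogen, but at 1.29, 0.894 and 1.19 CPM in glutamine. In glutamate it was at 2.95, 2.32 and 6.72 CPM at 3 h, below each of the nitrate 3 h values.

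Locus_13524 was at 75.9, 104 and 143 CPM at 3 h and at 16.8, 10.8 and 13.6 CPM at 27 h, again with no overlap. It fell by 2.96 on the log2 scale (SE 0.38, edgeR adjusted p = 3.38e-06), and the change without replicate 2 was also -2.96. Unlike Locus_11442 it was already at 54.3, 128 and 185 CPM in the inoculum. It fell over the same interval in each of the other media: by 1.90 in glutamine (edgeR adjusted p = 0.000451), by 1.90 without nitrogen (8.68e-05) and by 2.23 in glutamate (9.49e-06). The difference between its fall in nitrate and that without nitrogen was -1.06 and was not called (SE 0.50, edgeR adjusted p = 0.149).

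**Figure D3:**
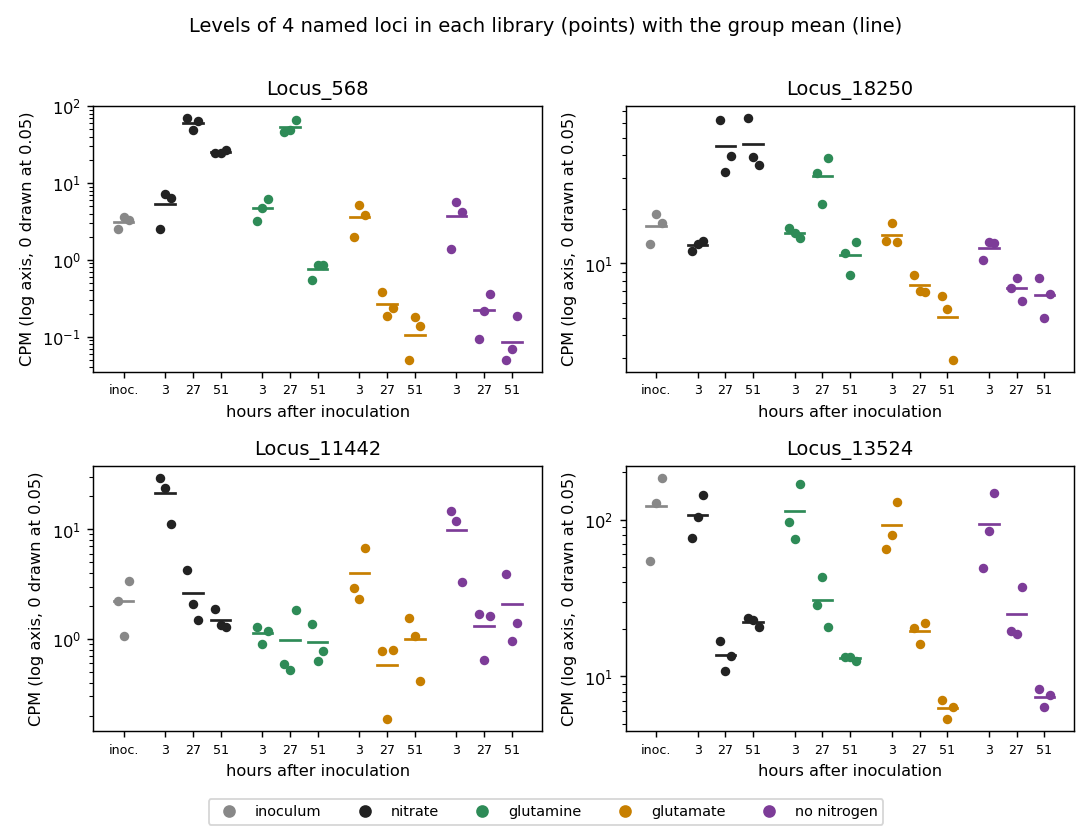
Points give the level of 4 loci in CPM on a log axis in each of the 39 libraries, grouped by medium and hours after inoculation, and lines the group means. Locus_568 and Locus_18250 rise from 3 to 27 h in nitrate and in glutamine and fall in glutamate and without nitrogen, while Locus_13524 falls in all 4 media and Locus_11442 starts near its later level in glutamine.

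The called loci were more abundant than the rest and lay in a middle range of levels. Their mean CPM over all 39 libraries had a median of 16.9 in the risen and 15.5 in the fallen loci, against 6.11 over all loci, and the per-length medians were 14.9, 10.9 and 6.36 TPM. Calls were made at 0.702% of 1853 loci under 1 CPM, 3.52% of 9213 loci from 1 to 10 CPM, 9.57% of 5874 from 10 to 100 CPM and 10% of 570 from 100 to 1000 CPM. Without nitrate 3 h replicate 2 these shares were 0.162%, 1.34%, 6.09% and 6.84%. The precision changed along the same classes. In the fit with all libraries, 95% intervals of the change stayed within 2-fold at 0.54%, 43.1%, 83.9% and 79.8% of these loci. Above 1000 CPM this held for 39% of 59 loci, and 1 locus was called. That locus, chosen here for its class after its values were seen, is Locus_55, which went from 398, 426 and 320.3 CPM to 156, 139 and 233 CPM (log2 fold change -1.11, edgeR adjusted p = 0.00565, and 0.0336 without replicate 2).

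The fallen loci were also longer than the average locus. Effective length, recovered as count over TPM and scaled to the median locus, had a median of 1.45 in the fallen loci and 1.07 in the risen loci, against quartiles of 0.566 and 1.55 over all loci. For those called in both fits the medians were 1.52 and 1.25. Longer loci gather more counts at the same TPM, and the part of this in the calls was not tested. As a share of all transcripts by TPM, the fallen loci held 1.40%, 5.38% and 2.48% at 3 h in replicates 1, 2 and 3, and 0.802%, 1.01% and 1.31% at 27 h. These loci were chosen as lower at 27 h in the same 6 libraries, which fixes the direction, so the shares only describe how much of the transcripts they make up. The risen loci held 0.712%, 2.21% and 1.39% at 3 h and 1.46%, 1.61% and 2.15% at 27 h. Here the groups overlap through replicate 2 at 3 h, the library with the low share of counts in its 10 most abundant loci, and the part of that share in these values was not tested.

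The same interval was then followed in the other media, whose libraries are separate from the nitrate libraries. Glutamine, the other usable nitrogen source, had calls at 9.67% of loci from 3 to 27 h. Of the 449 loci that rose in nitrate, 213 also rose in glutamine and 0 fell, 47.4% of this list and 24.5% of the 868 loci that rose in glutamine. Of the 508 that fell in nitrate, 277 fell in glutamine and 10 rose, 54.5% of this list and 33.3% of the 831 that fell there. The median log2 fold change in glutamine was 0.59 for the risen and -0.74 for the fallen loci, against -0.03 over all loci. Among the loci called in both nitrate fits the shares were 70.5% (158 of 224) and 69.2% (128 of 185).

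Without nitrogen the risen loci were divided, while more of the fallen loci fell than rose. That culture changed at 27.1% of loci from 3 to 27 h, so calls in it were common to begin with: 12.9% of all loci rose and 14.2% fell. Of the loci that rose in nitrate, 63 rose without nitrogen and 74 fell, 14% and 16.5%, close to the shares over all loci, and their median log2 fold change was -0.04. Of the loci that fell in nitrate, 174 (34.3%) fell without nitrogen as well and 61 (12%) rose, with a median of -0.29. Glutamate had calls at 31.6% of loci, with 15.7% of all loci higher and 15.9% lower. Among the risen loci 40 (8.91%) were higher and 109 (24.3%) lower in glutamate. Among the fallen loci 72 (14.2%) were higher and 173 (34.1%) lower. Among loci called in both nitrate fits, 31 of 224 rose and 49 fell without nitrogen, and 82 of 185 fell and 24 rose.

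**Figure D4:**
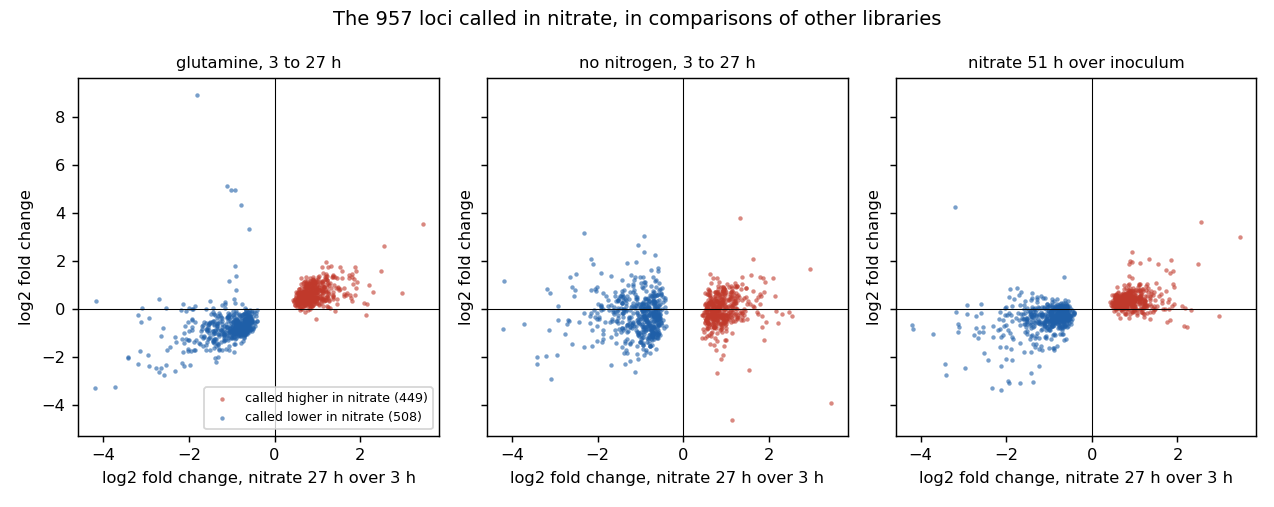
The 957 loci called in nitrate are placed by their log2 fold change from 3 to 27 h in nitrate (horizontal) and, on the vertical axis of each panel, by that in glutamine, that without nitrogen and that of nitrate 51 h over the inoculum, none of which shares a library with the horizontal axis. In glutamine 98.4% of the 449 risen loci (red) lie above 0 and 5.51% of the 508 fallen loci (blue) do. Without nitrogen these shares are 47.2% and 36%. Over all tested loci, not drawn here, 47.3% lie above 0 in glutamine and 53.3% without nitrogen.

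Whether the change in nitrate differed from that without nitrogen was tested directly as the difference of both changes. It was called at 2834 loci, 16.1% of those tested, with 1523 changing more upward in nitrate and 1311 more downward (edgeR). In the first set the median log2 fold change was 0.26 in nitrate and -0.86 without nitrogen, and 228 of its loci were called higher in nitrate against 1184 called lower without nitrogen. In the second set the medians were -0.43 and 0.95, with 195 called lower in nitrate and 971 called higher without nitrogen. Most of these differences thus carried a called change in the starved culture and none in the nitrate culture. Over all 17569 loci, 449 rose and 508 fell in nitrate, and 12.9% rose and 14.2% fell without nitrogen. All 74 loci that rose in nitrate and fell without nitrogen were in the first set. All 61 with the opposite pair of calls were in the second. Both sets were chosen by this same difference, which draws the changes apart and largely fixes this membership. The medians and calls therefore only describe the sets. Without nitrate 3 h replicate 2 the counts were 1699 and 1013, within run 1 they were 642 and 412, and within run 2, with 1 library per group, 423 and 227. Limma on log2(TPM + 1) values called 16 and 170, where the overall median was -0.40 against -0.08 by edgeR, and 1435 and 861 on centred values.

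Locus_568 again led the positive side, with a difference of 7.40 log2 units (SE 0.60, edgeR adjusted p = 4.55e-11). Its level without nitrogen went from 1.37, 5.64 and 4.19 CPM at 3 h to 0.0935, 0.215 and 0.36 CPM at 27 h, in counts from 14, 34 and 52 to 1, 3 and 4. Without nitrate 3 h replicate 2 the difference was 7.77. Locus_1065 was next, at 141, 241 and 181 CPM at 3 h and 396, 446 and 394 CPM at 27 h in nitrate. This rise measured 1.13 on the log2 scale (SE 0.21) with an edgeR adjusted p of 0.000949. Without nitrogen it went from 112, 190 and 153 to 5.52, 5.52 and 7.55 CPM, and the difference of the changes was 5.74 (SE 0.32, edgeR adjusted p = 1.92e-15), and 5.99 without replicate 2. The inoculum stood at 364 ± 22.9 CPM (n = 3), above every nitrate 3 h library, and nitrate at 51 h held 1187, 1608 and 1365 CPM, above all libraries at 27 h.

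On the negative side the named loci rose without nitrogen and were not called in nitrate. Locus_10078 was at 13.3, 18.4 and 15.4 CPM in nitrate at 3 h and at 13.5, 12.1 and 14.2 CPM at 27 h, which overlap (log2 fold change -0.25, edgeR adjusted p = 0.551). Without nitrogen it went from 22.7, 18.2 and 16.5 to 753, 658 and 466 CPM, so that the difference of the changes was -5.28 (SE 0.31, edgeR adjusted p = 5.64e-15), and -5.10 without replicate 2. Locus_12170 was between 0.81 and 1.90 CPM in all 6 nitrate libraries and rose from 2.64, 1.49 and 1.45 to 64.8, 49.2 and 63.5 CPM without nitrogen (difference -5.15, SE 0.52, edgeR adjusted p = 3.71e-09). Without nitrate 3 h replicate 2 its difference was -5.1.

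Few loci changed differently in nitrate and glutamine. The difference of both changes was called at 50 loci, 0.285% of those tested, 49 with the more downward change in nitrate and 1 with the more upward (edgeR). At an unadjusted p under 0.05 there were 855 of 17569 loci, fewer than this threshold passes on average when no locus differs. By DESeq2 58 were more downward and 1 more upward. The 95% interval of the difference stayed within 2-fold at 41.6% of loci. Over all loci tested, 4.94% were called higher in glutamine and 508 of 17569 were called lower in nitrate. In the 49 loci the median log2 fold change was -0.55 in nitrate and 2.10 in glutamine, and 46 were called higher in glutamine against 13 called lower in nitrate. Their median level at 3 h was 2.62 log2 CPM in glutamine, against 4.48 in nitrate, 4.87 without nitrogen, 4.95 in glutamate and 4.57 in the inoculum. By 27 h the median had reached 4.90 in glutamine and stood at 3.95 in nitrate. The set was chosen by this same difference, and its glutamine libraries at 3 h were the lowest of all groups. Without nitrate 3 h replicate 2, 39 loci were called, all more downward in nitrate, and within run 1 there were 21, all in that direction. The fit within run 2 called 13, but nitrate 3 h, nitrate 27 h and glutamine 3 h have 1 library each there and are assumed to vary like the other groups.

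Locus_363 went from 1127, 718 and 525 CPM at 3 h to 612, 463 and 475 CPM at 27 h in nitrate, a change that was not called (log2 fold change -0.61, edgeR adjusted p = 0.137). In glutamine it went from 5.17, 5.19 and 5.77 to 1270, 1439 and 1059 CPM, and the difference of the changes was -8.48 (SE 0.40, edgeR adjusted p = 3.19e-18), and -8.56 without nitrate 3 h replicate 2. Locus_9995 fell in nitrate from 22.1, 5.99 and 5.13 to 4.25, 1.70 and 3.10 CPM (log2 fold change -1.81, edgeR adjusted p = 0.0192). It had 2 counts over the 3 glutamine libraries at 3 h and 853 at 27 h, a ratio of 566 per scaled library size with an exact 95% interval of 156 to 4681 that covers counting error only. The fitted difference of -10.8 for this locus, and of -11.1 without nitrate 3 h replicate 2, depends on the constant added to such low counts. Locus_10751, the 1 locus with the more upward change in nitrate, was chosen as that exception and not by the naming rule. It held 4, 15 and 7 counts in nitrate at 3 h and 14, 10 and 10 at 27 h, and 43, 20 and 10 counts in glutamine at 3 h and 7, 1 and 8 at 27 h (difference 3.14, edgeR adjusted p = 0.0286), and it was not called without replicate 2.

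The called loci were also followed along the whole nitrate course. The risen loci had a median of 4.08 log2 CPM in the inoculum, 3.75 at 3 h, 4.62 at 27 h and 4.37 at 51 h. For the fallen loci the medians were 3.87, 4.28, 3.46 and 3.58, and over all loci they stayed between 2.52 and 2.56. The choice of the loci by the 3 and 27 h libraries draws those levels apart, which does not hold for the inoculum and 51 h libraries. By the separate comparison of nitrate 51 h with the inoculum, in which 1.7% of all loci were called (114 higher and 185 lower, and 184 or 152 in all without nitrate 51 h replicate 1 or inoculum replicate 1), 47 of the 449 risen loci were higher and 0 lower. Among the 508 fallen loci 72 were lower and 2 higher. These are 41.2% of the 114 loci called higher at 51 h and 38.9% of the 185 called lower. The median log2 fold change from inoculum to 51 h was 0.34 in the risen and -0.31 in the fallen loci, against -0.01 over all loci. Among loci called in both fits 41 of 224 were higher and 53 of 185 lower.

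**Figure D5:**
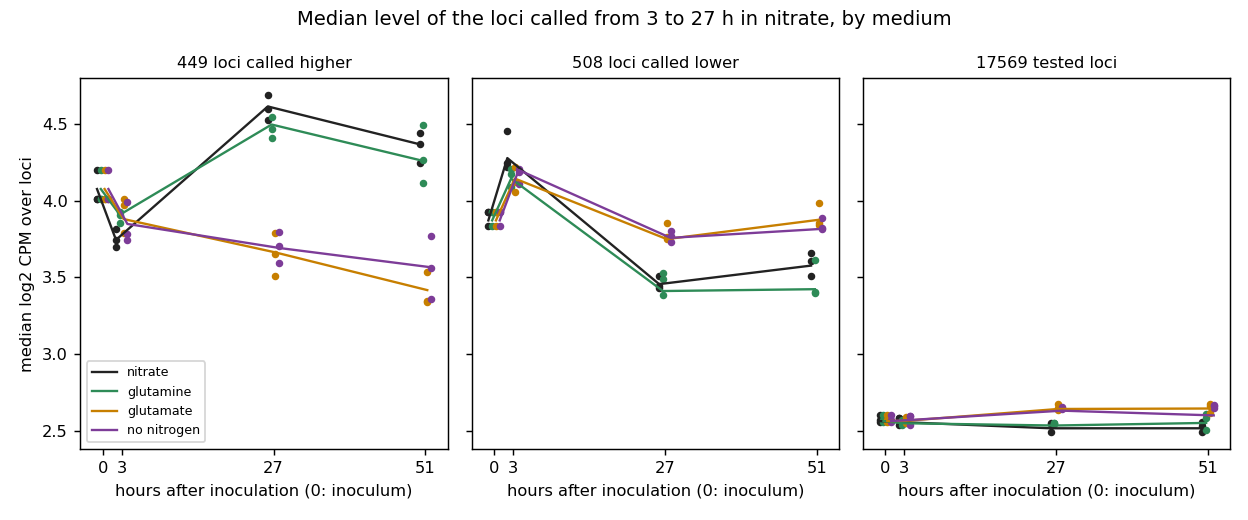
Lines give the median log2 CPM over the 449 risen loci, the 508 fallen loci and all 17569 tested loci in each medium against hours after inoculation, with the inoculum at 0, and points the medians in single libraries (shifted sideways by medium). At 27 h the risen loci stand at 4.62 in nitrate and 4.50 in glutamine against 3.69 without nitrogen and 3.66 in glutamate, and the fallen loci at 3.46 and 3.41 against 3.76 and 3.75.

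The 2 fallen loci that ended above the inoculum were followed because they were exceptions, after their values were seen. Locus_16559 was at 3.49, 3.95 and 1.76 CPM in nitrate at 3 h, at 0.455, 0.379 and 0.265 CPM at 27 h and at 98.8, 229 and 227 CPM at 51 h. Its libraries were thus lowest at 27 h and highest at 51 h, with the inoculum between at 13, 7.25 and 8.79 CPM. The change from 3 to 27 h was -3.20 on the log2 scale (edgeR adjusted p = 0.0013, and 0.0173 without replicate 2), from counts of 33, 128 and 13 to 3, 2 and 3. In glutamine it also went from 3.44, 2.59 and 2.47 to 0.354, 1.04 and 0.555 CPM, but it stood at 0.831, 1.48 and 1.46 CPM at 51 h. Locus_6535 went from 23.2, 26 and 22.5 to 13, 16.9 and 16 CPM and then to 64.2, 73.8 and 82 CPM at 51 h. Its fall from 3 to 27 h (-0.65, edgeR adjusted p = 0.0344) was not called without replicate 2 (edgeR adjusted p = 0.14).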

How the data were processed

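RNA from 39 libraries in 13 groups was measured. Per the labels' protocols, total RNA was depleted of ribosomal RNA, and stranded libraries were read from a single end in 2 runs, with replicates 1 and 2 of nitrate 3 and 27 h in run 1 and replicate 3 in run 2. The authors deposited whole-number read counts per locus and TPM values. FastQC, STAR, RSEM and edgeR 3.4.0 are named in the submitters' processing notes without roles, and no build or annotation is named in the sources used here. All columns matched a sample title.

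Tests on these counts used edgeR 4.0.16 (R 4.3.3): filterByExpr (926 loci with 0.0235% of the counts removed), TMM factors (0.617 to 2.16), a single quasi-likelihood fit of all 39 libraries with a mean per group, and Benjamini-Hochberg adjustment over loci at 0.05. CPM are per TMM-scaled library, log2 CPM used a prior count of 2, and SEs derive from the fold change and F value. Alternatives used DESeq2 1.42.0 and limma 3.58.1 on log2(TPM + 1) or log2(TPM + 0.1). Total counts in the series ranged from 3342102 to 41114965. Fits were tested on simulated counts.

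Per the labels, the whole experiment was done 3 times and a replicate number stands for 1 of these rounds, which pairs the libraries. Over loci, the deviations of nitrate 3 and 27 h libraries from their groups had a mean r of -0.00967 for equal numbers and 0.00478 for unequal ones. Deviations cancel within each group, so these means are tied to each other and do not test whether the pairing matters. No pair of libraries within the 2 groups agreed to within sampling noise (chi-square per degree of freedom of at least 21.4).

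Named loci were the 2 largest changes in each direction among called loci averaging 10 CPM or more over the compared groups, with a call also without nitrate 3 h replicate 2, and for nitrate 27 h against 3 h no overlap between the times; for the difference from glutamine only negative loci qualified. Exceptions are marked. Comparisons and rules were chosen with earlier results of these data known. Gene lists planned on nitrogen assimilation, photosynthesis, ribosomes, the cell cycle and heat shock were not used, since the files pair no IDs with names.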

Additional observations from a re-analysis of the deposited data

Results flagged for a closer look

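The change from 3 to 27 h differed between nitrate and no nitrogen at 2834 loci by a test of the difference itself, and between nitrate and glutamine at 50 loci. The named loci with such a difference from no nitrogen had log2 values of 7.40 (Locus_568), 5.74 (Locus_1065), -5.28 (Locus_10078) and -5.15 (Locus_12170), nitrate change minus the other. Those with a difference from glutamine had -10.8 (Locus_9995) and -8.48 (Locus_363).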

How the results depend on the processing

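For nitrate 27 h against 3 h, where 957 loci were called, 7 of 19 alternatives stayed within 1.5 times that count. The replicate block gave 1447, run 1 alone 287, run 2 alone 8, the 6 compared libraries alone 464, limma on log2(TPM + 1) 29, on log2(TPM + 0.1) 37, without a filter 28, and on TPM centred by library, an alternative chosen after seeing the data, 624. Leaving out a library gave 336 to 770. Without nitrate 3 h replicate 2 the 524 calls became 820 by DESeq2, 1065 with the replicate block, 795 with run as a covariate, 343 in run 1, 897 in the 5 libraries alone, and 6, 8 and 6 by limma on log2(TPM + 1), log2(TPM + 0.1) and unfiltered values. The difference from no nitrogen (2834) gave 1054 in run 1, 650 in run 2 and 186, 183 and 184 by the same limma fits. The difference from glutamine (50) gave 21, 13, 28 and, unfiltered, 25. Nitrate 51 h against the inoculum (299) gave 461 by DESeq2, 73 in run 1, 133 in run 2, 39, 36 and 39 by limma, and 152 to 258 without single libraries. The 10-locus share, 10.2 points higher at 27 h, was -0.833 points without nitrate 3 h replicate 2. Fits within a run hold fewer libraries, and uncentred TPM keeps the share taken by dominant loci. Whether these or other causes account for the lower counts was not tested. In no called locus named by the rule did an alternative turn the direction: 221 of 226 values stayed called. The rule took the largest changes and asked for a call without nitrate 3 h replicate 2, so part of this was fixed in advance. Loci under 1 CPM are limited by depth, and an exact test of 3 against 3 libraries cannot go below p = 0.1.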
